A study of Mus musculus with 4 samples.

Results

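Mouse chromosome 12 carried 3275 of the 82325 ATAC-Seq sites measured in immortalized mouse embryonic fibroblasts (imMEFs) with and without HAT1, and these 3275 sites were taken by chromosome name alone. The chromosome was chosen by its library shifts, the displacement of each library against the other 3, which were known from these same values, so the shifts below are a description and were not tested. Accessibility was measured in 4 libraries, each from a separate fibroblast line on the C57bl6 background. WT1 and WT2 came from HAT1 WT lines (Hat1+/+), and KO1 and KO2 from HAT1 KO lines (Hat1-/-, without HAT1). All 4 lines were derived from mid-gestation embryos, immortalized with a viral large T antigen and grown in DMEM with serum and antibiotics, and none received a treatment. The comparison asks where accessibility differs in cells that lack HAT1. Each line gave 1 library, so the spread within a genotype is the spread between lines, and any p-value measures that spread and nothing finer.

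HAT1 is a histone acetyltransferase that modifies newly synthesized histone H4 before it is deposited behind the replication fork. In ATAC-Seq the Tn5 transposase inserts adapters into DNA that is not wrapped in nucleosomes, so that reads accumulate at active promoters and enhancers. The read number over a site follows accessibility and also the number of DNA copies in the cells, and these cannot be told apart in these data. Copy number was not measured in these files. Chromosome 12 carries developmental regulators such as Twist1, Meox2 and Sox11, the immediate early gene Fos, the imprinted Dlk1-Dio3 domain and the immunoglobulin heavy chain locus, so that broadly active and tissue-restricted genes lie on 1 chromosome.

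A promoter site was one within 3 kb of the start site of an annotated transcript. Chromosome 12 held 886 promoter sites (27.1%, against 30.0% of all sites), 1195 intronic sites (36.5% against 35.3%), 1087 intergenic sites (33.2% against 30.0%) and 107 exonic sites (3.27% against 4.68%). The sites had a median length of 431 bp and a median normalised read count of 45.5, against 440 bp and 52.0 over all sites. On this chromosome 188 promoter sites (21.2%) had the AP-1 letters TGANTCA on either strand in the 300 bases around their centre, against 19.7% of all promoter sites. Of the nonpromoter sites 45.5% had them, against 45.4% of all nonpromoter sites. The GC box letters GGGCGG, the core bound by Sp factors, were in 42.3% of chromosome 12 promoter windows and 6.36% of nonpromoter windows (41.9% and 6.79% over all sites). CCAAT was in 30.5% and 34.6% of them (29.7% and 33.7% over all sites). Each of these motif shares was close to that over all sites.

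The sequences below come from sites of the distal region and from 2 named sites, which are called sites at least as strong as the median site. Weaker called sites had larger fold changes, and except for that of the distal region their sequences are not shown. They are from RefSeq GRCm38.p6 (the assembly named mm10), plus strand, 5′ to 3′, and capitals mark matches to the letters above on either strand. The first 2 windows are the centres of the strongest promoter and the strongest nonpromoter site of the distal region, both in introns of Macc1, at chr12:119440910-119441209 and chr12:119426397-119426696. The third sequence is the part of the Macc1 site at chr12:119390225-119390374 that precedes the annotated transcript start within it, shown because KO2 stood far above the other libraries there. The next, at chr12:119762532-119762831, is the called site of the distal region. The last 2 windows are the named sites with the lowest and the highest fold change, at chr12:59582734-59583033 (intergenic, nearest coding start Fbxo33) and chr12:53061560-53061859 (in an intron of Akap6, nearest coding start Npas3). These middle 2 were chosen after their values were seen.
Macc1 strongest promoter site: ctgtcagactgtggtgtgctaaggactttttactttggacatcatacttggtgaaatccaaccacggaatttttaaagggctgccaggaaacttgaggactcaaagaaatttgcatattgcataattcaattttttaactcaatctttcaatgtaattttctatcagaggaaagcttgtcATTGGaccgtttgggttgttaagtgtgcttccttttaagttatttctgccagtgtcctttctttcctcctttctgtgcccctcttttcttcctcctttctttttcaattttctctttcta
Macc1 strongest nonpromoter site: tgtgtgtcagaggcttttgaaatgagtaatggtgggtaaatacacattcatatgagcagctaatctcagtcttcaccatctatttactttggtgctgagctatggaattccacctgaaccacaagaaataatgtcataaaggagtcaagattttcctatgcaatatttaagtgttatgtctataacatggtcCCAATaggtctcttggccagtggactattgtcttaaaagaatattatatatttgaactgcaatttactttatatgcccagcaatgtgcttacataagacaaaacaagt
Macc1 site at a transcript start: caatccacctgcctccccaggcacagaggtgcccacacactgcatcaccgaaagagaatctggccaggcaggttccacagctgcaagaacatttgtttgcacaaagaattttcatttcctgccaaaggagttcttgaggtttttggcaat
Called site of the distal region: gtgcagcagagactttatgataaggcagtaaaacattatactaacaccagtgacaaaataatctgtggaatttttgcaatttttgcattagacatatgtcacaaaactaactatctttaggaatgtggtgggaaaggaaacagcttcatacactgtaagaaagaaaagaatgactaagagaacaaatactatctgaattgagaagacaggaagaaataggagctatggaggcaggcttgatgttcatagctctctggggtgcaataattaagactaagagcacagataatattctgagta
Site nearest to Fbxo33: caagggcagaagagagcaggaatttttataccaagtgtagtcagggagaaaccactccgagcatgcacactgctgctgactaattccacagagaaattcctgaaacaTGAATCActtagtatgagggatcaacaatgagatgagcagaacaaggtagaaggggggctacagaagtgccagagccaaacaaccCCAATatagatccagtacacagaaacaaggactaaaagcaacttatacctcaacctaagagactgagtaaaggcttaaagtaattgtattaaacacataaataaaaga
Site nearest to Npas3: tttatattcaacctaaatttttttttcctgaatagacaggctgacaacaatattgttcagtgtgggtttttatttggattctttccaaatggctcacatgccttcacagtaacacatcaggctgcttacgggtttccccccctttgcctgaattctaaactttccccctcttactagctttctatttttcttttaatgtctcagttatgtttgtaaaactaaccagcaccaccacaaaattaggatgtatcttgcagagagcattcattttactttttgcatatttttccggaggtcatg
The Fbxo33 window held 1 AP-1 match (TGAATCA) and 1 CCAAT match. The strongest Macc1 promoter window held ATTGG, the reverse complement of CCAAT, and the strongest nonpromoter window held CCAAT. None of the other 3 sequences held any of the letters searched. Over the 22 sites of the distal region, 7 windows (31.8%, against 37.7% of all windows) had the AP-1 letters, 8 (36.4% against 32.5%) had CCAAT, and 0 had the GC box (17.3% of all windows).

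Approximate depth, estimated from the spacing of the scaled values, was 5700000 to 11000000 reads in sites per library and was lower in both KO libraries than in both WT libraries. About 200000 (KO2) to 410000 (WT2) of these reads lay on chromosome 12. All 10 fibroblast marker genes had a site at a start (mean values 78.8 to 866), and 0 of 4 blood and 0 of 2 pluripotency markers had one. Of other cell types, 3 of 3 epithelial (20.5 to 56.2), 2 of 3 endothelial (55.5 and 73.5) and 1 of 3 neural markers (63.0) had a site.

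The read count over chromosome 12 sites was lower in WT1 than in the other 3 libraries. They took 3.17% of the normalised total in WT1, 3.61% in WT2, 3.61% in KO1 and 3.58% in KO2. The median site had a normalised read count of 41 in WT1, 47 in WT2, 48 in KO1 and 45 in KO2. WT1 was thus low by both measures, and the 2 WT libraries stood further apart than the 2 KO libraries. The library shift is the log2(value + 1) of a library minus the mean of the other 3 at the same site. Its median over chromosome 12 was -0.18 in WT1 (interquartile range -0.48 to 0.14), 0.08 in WT2, 0.07 in KO1 and 0.07 in KO2. WT1 was 12% lower than the others by this median, and it was below them at 66.4% of sites. It was the lowest of the 4 libraries at 1192 sites (36.4%), against 21.9% of sites on the other chromosomes. WT2 was lowest at 17.1% of sites, KO1 at 21.1% and KO2 at 21.2%.

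Among the 19 other chromosomes (autosomes and X), the median WT1 shift ran from -0.11 on chromosome 19 to 0.37 on chromosome 14, so that chromosome 12 had the most negative value. The share of sites at which WT1 was lowest ran from 6.30% on chromosome 14 to 32.7% on chromosome 7, below the share of chromosome 12. Other libraries were shifted on other chromosomes, by as much as 0.47 for KO1 on chromosome 19. The KO2 shift reached 0.16 on chromosome 7. On chromosome 19 KO2 was at -0.18 and was the lowest library at 35.6% of sites, and WT2 was at -0.17. These drops are about the size of that of WT1 on chromosome 12. Chromosome 12 was not the only one displaced in a library.

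**Figure D1:**
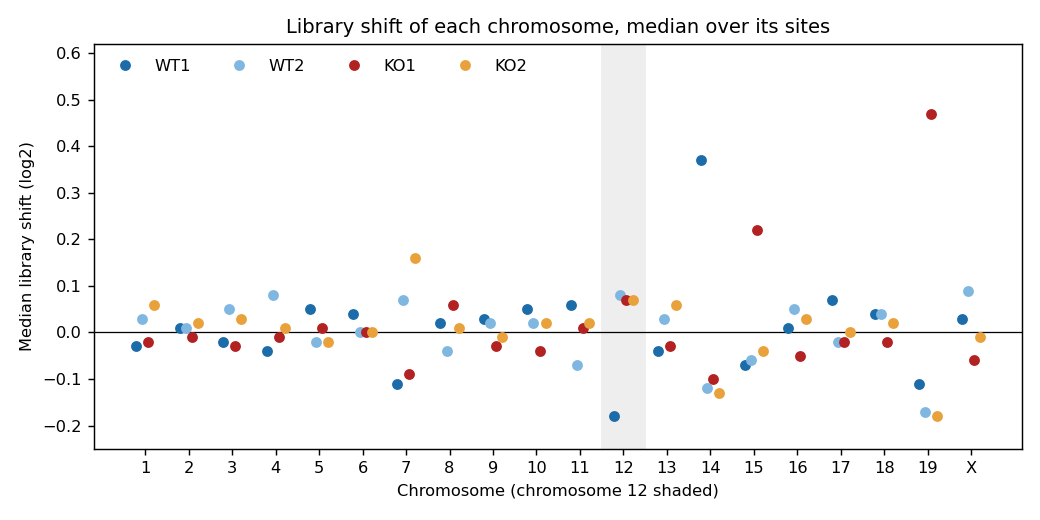
Median library shift (log2, vertical axis) over the sites of each chromosome (horizontal axis), 1 point per library, with chromosome 12 shaded. WT1 sits at -0.18 on chromosome 12 and the other 3 libraries at 0.07 to 0.08, while WT1 is at 0.37 on chromosome 14 and KO1 at 0.47 on chromosome 19.

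The WT1 shift was present in every class of site. At promoter sites it was -0.15 (WT1 lowest at 41.2%, against 19.4% of promoter sites elsewhere), and at nonpromoter sites -0.21 (34.6% against 23.0%). Intronic sites had -0.23, intergenic sites -0.20 and exonic sites -0.12. The other 3 libraries had medians of 0.03 to 0.12 at promoter and nonpromoter sites. The classes therefore did not differ in which library was low.

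Sites were split into 4 classes of equal size over the whole table by their mean value, with limits at 27.8, 52.0 and 120. The WT1 shift on chromosome 12 was -0.11 in the weakest class (971 sites), -0.17 in the second (830 sites), -0.16 in the third (799 sites) and -0.25 in the strongest (675 sites, median value 212). Elsewhere it was 0.09, 0.10, 0.03 and -0.06. The gap in the WT1 shift between chromosome 12 and the other chromosomes was thus found at weak and strong sites alike. In the weakest class WT1 was not the lowest library by its median, since KO1 was at -0.13. WT1 was lowest at 22.9% of these sites (15.2% elsewhere) and KO1 at 30.9% (34.5% elsewhere). Strong sites carry the most reads and the least counting error, and their shifts were narrowly spread, with an interquartile range of -0.43 to -0.12. WT1 was lowest at 445 of these 675 sites (65.9%, against 32.8% of strong sites elsewhere) and highest at 3.85%. In this class the shift was -0.20 at the 382 promoter sites (WT1 lowest at 64.4%) and -0.37 at the 293 nonpromoter sites (67.9%).

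**Figure D2:**
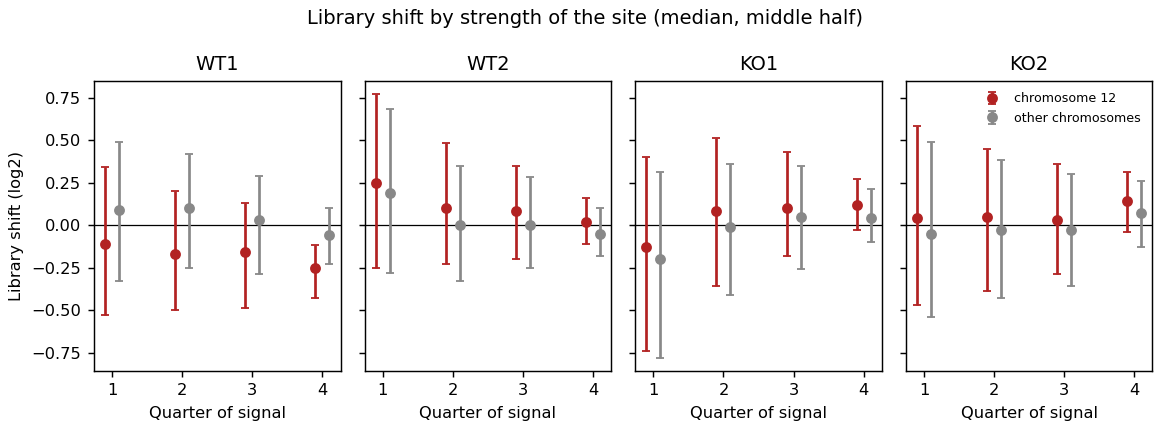
Library shift (log2, vertical axis) of sites in 4 classes of signal from weakest (1) to strongest (4), as the median (point) and interquartile range (bar), for chromosome 12 and for the other chromosomes, 1 panel per library. In WT1 the chromosome 12 median lies below the other chromosomes in each class, and in the strongest class its bar, from -0.43 to -0.12, lies below 0.

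Base composition went with the size of the shift. In 3 classes of equal size by the GC content of the site's centre, the WT1 shift on chromosome 12 was -0.31 at low, -0.18 at middle and -0.10 at high GC. At low and high GC on the other chromosomes it was -0.11 and 0.08, so that chromosome 12 was about equally far below them at both ends. Chromosome 12 windows with the AP-1 letters had -0.26 and those without them -0.15, against -0.06 and 0.04 elsewhere. Gene density made less difference, with -0.20 at sites with 0 to 3 protein-coding start sites in 1 Mb around them and -0.16 at sites with 10 or more. Elsewhere these were -0.05 and 0.04. At the gene-poor sites of chromosome 12 KO1 was at -0.17 (-0.18 elsewhere). KO1 was lowest at 35.8% of them and WT1 at 31.4%. Along the chromosome, blocks of 20 Mb had WT1 shifts of -0.25, -0.19, -0.22, -0.20, -0.18 and -0.11 in order. Each block was negative, so the displacement was not confined to 1 stretch.

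Averaging over neighbouring sites showed how even the shift was. In bins of 1 Mb with 5 or more sites (92 bins here, 2018 elsewhere), the median WT1 bin was at -0.19 (interquartile range -0.28 to -0.06), and the shift was below 0 in 75 bins (81.5%, against 46.1% elsewhere). WT1 was the lowest library in 56 bins (60.9% against 23.0%). WT2 was lowest in 14 bins, KO1 in 15 and KO2 in 7. The promoter sites alone gave 53 of 59 bins below 0 in WT1 (89.8% against 37.3%) and 44 bins with WT1 lowest (74.6% against 15.4%). The nonpromoter sites alone gave 69 of 89 bins below 0 (77.5% against 50.6%) and 51 with WT1 lowest (57.3% against 27.0%).

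In 57 bins both kinds of site could be measured. WT1 was below 0 at both in 42 bins, above 0 at both in 0 bins and on opposite sides of 0 in 15. Elsewhere WT1 was below 0 at both in 388 of 1443 bins and above 0 at both in 556. The size of the WT1 shift at promoter sites followed that at nonpromoter sites little from bin to bin. Over the 57 bins Pearson r was 0.07 and Spearman rho 0.12, against 0.51 and 0.46 over the 1443 bins elsewhere, in points that share libraries and depth. The bins elsewhere pool 19 chromosomes with median WT1 shifts from -0.11 to 0.37. Their r thus includes differences between chromosomes and is not a like measure for 1 chromosome. WT1 was low at both kinds of site by about the same amount (bin medians -0.20 and -0.23, SD 0.18 and 0.22) without the 2 kinds moving together between bins. For WT2, KO1 and KO2 the r over the same 57 bins was 0.42, 0.19 and 0.42.

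**Figure D3:**
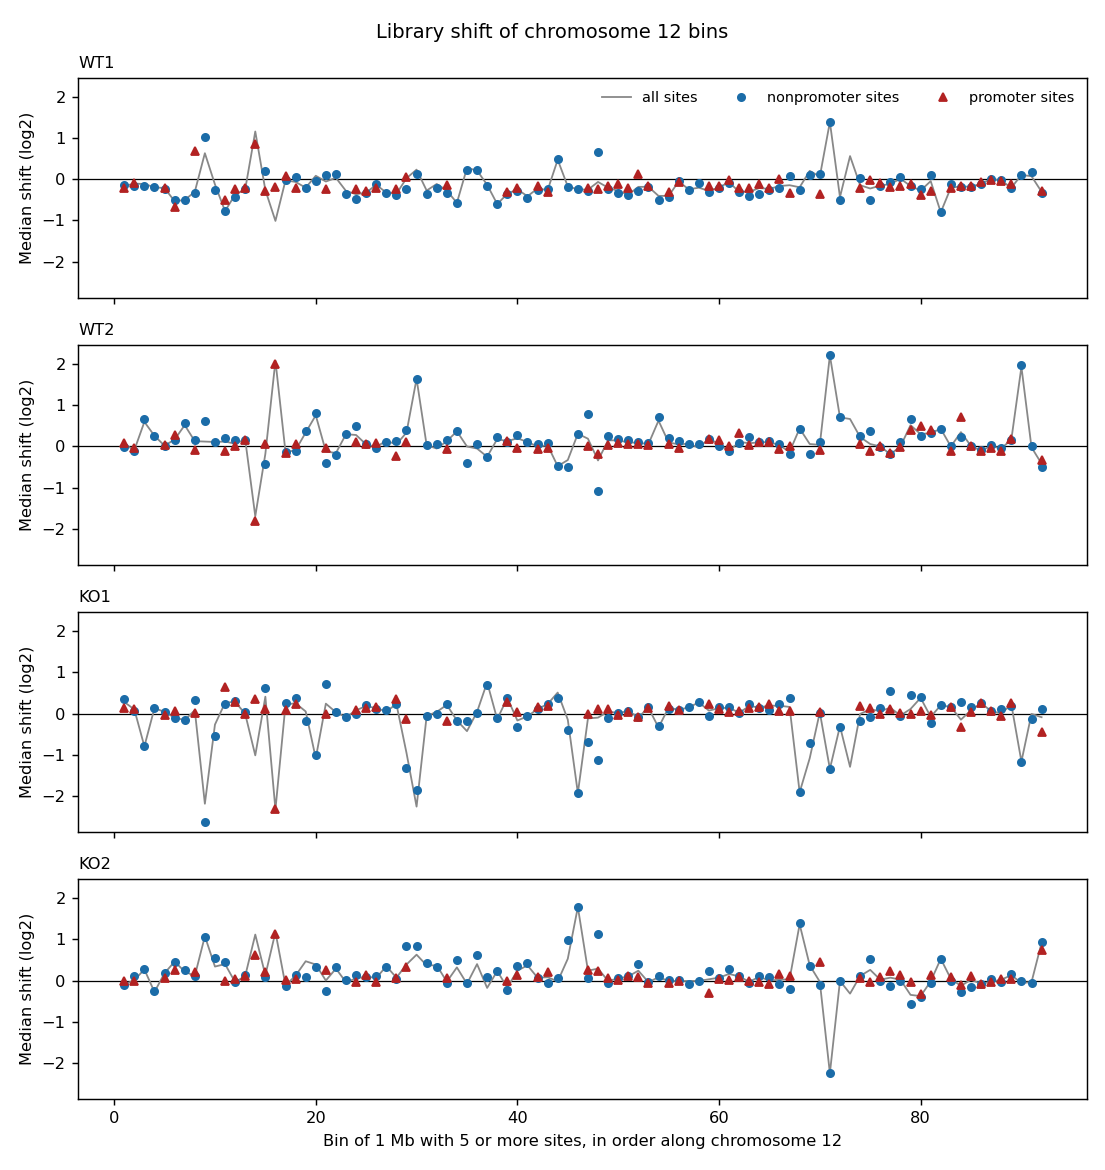
Median library shift (log2, vertical axis) in the 92 bins of 1 Mb in order along the chromosome (horizontal axis), for all sites (line), nonpromoter sites (circles) and promoter sites (triangles), 1 panel per library. WT1 lies a little below 0 in most bins (75 of 92), KO1 falls steeply in isolated bins (13 below -0.5), and KO2 rises at the right end.

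KO1 departed from the other libraries in single bins, about as often as on the other chromosomes. The KO1 shift was below -0.5 in 13 of 92 bins (14.1%, against 12.9% elsewhere). WT1 was below -0.5 in 6 bins (6.52% against 1.19%), a larger share than elsewhere. WT2 was so in 1 bin (1.09% against 1.49%) and KO2 in 1 (1.09% against 3.67%). The 13 bins held 143 sites (median bin value 25.1, with bins from 13.8 to 108, against a median of 43.8 in the other 79 bins) and had a median of 1 protein-coding start site in 1 Mb, against 6. The 13 bins began at 5, 12, 20, 22, 27, 36, 37, 58, 89, 90, 94, 97 and 117 Mb. Over all 92 bins the median KO1 shift was 0.05.

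After the bin at 22 Mb, the deepest KO1 shifts were at 37, 12, 58 and 89 Mb (-2.27, -2.20, -1.94 and -1.92). At 12 to 13 Mb, around Fam49a and the proto-oncogene Mycn, the median of 10 sites was 54.5 in WT1, 42 in WT2, 11 in KO1 and 67.5 in KO2. At 37 to 38 Mb, around Meox2 and Agmo, 14 sites had medians of 16.5, 28, 4 and 22 in the same order, and at 89 to 90 Mb 11 sites had 30, 34, 6 and 50. KO1 was lowest at these 3 bins and KO2 lay within or above the WT range, so that the genotypes overlapped. The bins in which WT1 was below -0.5 began at 9, 15, 22, 41, 50 and 107 Mb. At 107 to 108 Mb, next to Bcl11b, a zinc-finger factor of T cells and neurons, 12 nonpromoter sites had medians of 38.5 in WT1, 83.5 in WT2, 81.5 in KO1 and 74 in KO2. WT1 stood alone there with the other 3 close together.

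Bins with few sites differed from the rest. The 21 bins with fewer than 5 sites, which the bin rule leaves out, held 49 sites with median shifts of -1.71 in KO1, 0.83 in WT1, 0.44 in WT2 and 0.38 in KO2. In these sparse bins WT1 was not low. Just inside the site minimum, the 1 bin with 5 sites had shifts of -1.30 in KO1 and 0.57 in WT1, and just outside it the 4 bins with 4 sites had -1.38 and 0.53.

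The bins with extreme shifts were mostly poor in genes. The most negative KO1 and WT1 bin was 22 to 23 Mb, where the median of 7 sites was 8 in WT1, 25 in WT2, 1 in KO1 and 12 in KO2 (shifts -1.01, 2.09, -2.34 and 1.18). The most negative WT2 bin was 20 to 21 Mb, with medians of 129, 24.5, 58.5 and 132 over 6 sites in the same order. Genotypes overlapped in both bins. Some of the sequence there is repeated. The central 50 bases of 4 of the 6 sites in the 20 to 21 Mb bin had further exact copies on the chromosome (up to 8 in all). Further copies were also found for 2 of 7 sites in the 22 to 23 Mb bin, for 1 of 24 sites in the 21 to 22 Mb bin between them and for 1 of 328 sites taken at equal steps along the chromosome (0.305%). Reads from such copies cannot be assigned to 1 of them, and the 20 to 21 and 22 to 23 Mb bins are uncertain for that reason. None of the 14 called sites and none of the 22 distal sites described below had a further exact copy on the chromosome. At 19 to 20 Mb, where 1 called site lies, 2 of 3 sites had further copies (up to 4 in all). Only exact matches of the central 50 bases on chromosome 12 were searched.

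At 94 to 95 Mb, a bin with no coding start around it, the median of 8 intergenic sites was 29.5 in WT1, 38 in WT2, 4.5 in KO1 and 4 in KO2. Both KO libraries were below both WT libraries there, and the bin gave the most positive WT1 (1.40) and WT2 (2.22) shifts and the most negative KO2 shift (-2.26). At 58 to 59 Mb, 6 sites had medians of 27.5, 39, 15 and 73 in the same order, so that the 2 KO libraries lay at opposite ends (KO2 shift 1.79, the most positive of that library, and KO1 shift -1.94). The most positive KO1 bin was 49 to 50 Mb (0.76). The longest run of consecutive sites with KO1 lowest was 18 sites between 12261260 and 13215258, a stretch that contains Fam49a and Mycn.

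Tested as KO against WT, no bin was separated from the spread between lines. The fit used limma on the mean log2(value + 1) of each bin over all 2110 bins. Of the 92 bins 0 passed an unadjusted p under 0.01 (0.379% of all bins did) and 0 passed 0.05 (2.94%). The bin with the most evidence was 21 to 22 Mb (log2 fold change 0.37, SE 0.18). Of 59 bins of promoter sites, 0 passed 0.01 (0.460% of all such bins) and 4 passed 0.05 (3.02%). Of 89 bins of nonpromoter sites, 0 passed 0.01 (0.393%) and 1 passed 0.05 (2.90%). The bin at 94 to 95 Mb had the lowest log2 fold change (-2.83, SE 1.41), and the last bin with 5 or more sites, 119 to 120 Mb, had the highest (0.74). With all 4 libraries, no bin of any kind had an adjusted p under 0.05 (limma, Benjamini-Hochberg over all bins).

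At single sites, the median log2 fold change of KO over WT was 0.09 on chromosome 12 and 0.01 over all sites. Within WT, the median difference of WT1 minus WT2 was -0.20, larger than the difference between genotypes. KO1 minus KO2 had a median of 0.00. Both KO libraries were above both WT libraries at 617 sites (18.8%, against 14.6% of all sites) and below them at 324 (9.89% against 14.3%). These counts rest on the same libraries as the shift that chose the chromosome, and nothing was read from them. With 2 libraries against 2, an exact two-sided permutation test of a single site cannot go below p = 0.333.

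In a limma fit over all 82325 sites, a call needed an unadjusted p under 0.01 together with a log2 difference of 1 or more in either direction. On chromosome 12 the rule called 14 sites (0.427%, against 0.373% of all sites), 8 lower in KO (0.302% of all sites were) and 6 higher (0.0705%). At an unadjusted p under 0.05 there were 131 sites (4.00% against 3.13%). No site on any chromosome had an adjusted p under 0.05 (limma, Benjamini-Hochberg), and each of the 14 had an adjusted p of 1.00. They are candidates by an unadjusted rule.

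Of the 14, 3 were at least as strong as the median site of the whole table. The first (chr12:59582501-59583265, sequence above) was intergenic, 363 kb from the start of Fbxo33, a substrate adaptor of a ubiquitin ligase, and had 152 in WT1, 134 in WT2, 41 in KO1 and 69 in KO2. Both KO values were below both WT values, with a log2 fold change of -1.41 (SE 0.35). The second (chr12:69834027-69834740) lay in an intron of Map4k5, a kinase of stress signalling, 43.3 kb from the start of Cdkl1, a cyclin-dependent kinase-like gene. It had 156 and 209 in WT1 and WT2, and 82 and 92 in KO1 and KO2. The genotypes did not overlap there (log2 fold change -1.05, SE 0.27). The third (chr12:53061314-53062105) lay in an intron of Akap6, which anchors protein kinase A in muscle and neurons, 187 kb from the start of Npas3, a neuronal bHLH-PAS factor. It had 67 and 42 in WT1 and WT2, and 144 and 146 in KO1 and KO2. Here both KO values were above both WT values (log2 fold change 1.43, SE 0.33).

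The remaining 11 called sites were weaker and are described with their values known. Of the 6 lower ones, 5 were intergenic and lay between 93675000 and 96968441, the stretch that includes the 94 to 95 Mb bin. Their nearest coding genes were Sel1l, a component of the degradation machinery of the endoplasmic reticulum, and Flrt2, a membrane protein of cell adhesion and axon guidance, at distances of 1050 to 1830 kb. The site at chr12:93675000-93675463 had 72 in WT1, 64 in WT2, 1 in KO1 and 6 in KO2. The sites at 94509639 and 94640137 had 40 and 63 in WT1, 72 and 48 in WT2, 3 and 6 in KO1, and 3 and 5 in KO2. These sites were close to absent in both KO lines, and a fold change from so few reads depends on the pseudocount. The remaining lower site (19288308) overlapped the start of the predicted gene Gm5953 and had 93, 42, 19 and 9 in the order WT1, WT2, KO1, KO2.

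Of the 6 higher sites, the 5 below the median value were low in both WT lines. An intronic site of Foxn3 (chr12:99283679-99284322), a forkhead repressor, had 14 in WT1, 20 in WT2, 113 in KO1 and 53 in KO2 (log2 fold change 2.14). An intronic site of Smoc1 (chr12:81123996-81124668), a secreted calcium-binding matrix protein, had 20, 16, 102 and 53 in the same order (1.98). The genotypes were clear of each other at both, with KO1 above KO2. In Greb1, an oestrogen-responsive gene, an intronic site had 6, 5, 55 and 23, and a site in Trib2, a pseudokinase gene, at the start of Mir6387 had 21, 19, 82 and 47. KO1 was again the highest library. The last higher site lay in the distal region and is described with it.

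**Figure D4:**
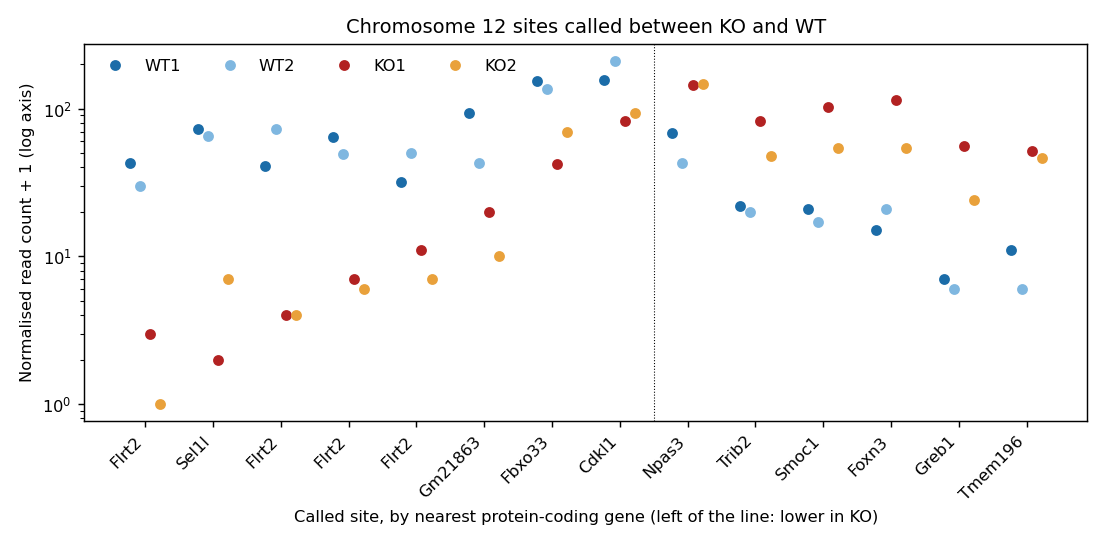
Normalised read count plus 1 (vertical log axis) in each library at the 14 called sites, named by the nearest protein-coding gene and ordered by fold change (horizontal axis), with sites lower in KO left of the dotted line. The 5 sites near Sel1l and Flrt2 have 0 to 10 in KO1 and KO2 and 29 to 72 in WT1 and WT2.

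A domain rule averaged the log2 fold change over 25 consecutive sites and kept windows under -0.58, joined over gaps of up to 1 Mb. It gave 5 domains of lower accessibility on chromosome 12 (7.54 Mb, 6.27% of the chromosome), out of 170 in the genome (204 Mb). Such domains were thus not particular to this chromosome. The largest ran from 93675000 to 98050937 (4.38 Mb, 55 sites, 5 of them promoter sites) with a mean log2 fold change of -1.01. Both KO libraries contributed to it, KO1 at -1.04 and KO2 at -0.98 against the WT mean, but not evenly along it. WT1 was 0.70 below WT2 there, and both KO libraries were below both WT libraries at 21 of the 55 sites. In its bin at 95 to 96 Mb, 33 sites had medians of 20 in WT1, 46 in WT2, 26 in KO1 and 35 in KO2, so the genotypes overlapped. The second (116485590 to 118302567, 25 sites) had -1.31 in KO1 and -0.82 in KO2, and WT1 was 0.91 below WT2 there. Its median shifts were 0.12 in WT1, 1.31 in WT2, -0.86 in KO1 and -0.06 in KO2, so WT2 stood highest. In its bin at 117 to 118 Mb the medians were 8, 29, 5 and 9 in the same order, and the genotypes overlapped. The third (36722836 to 37770262, 15 sites), which holds Meox2, had -2.00 in KO1 and 0.04 in KO2, so it was a fall of 1 line. The remaining 2 were short: 1 of 2 promoter sites at 24096917 to 24252656, where WT1 was 2.61 above WT2, and 1 of 9 sites at 91774715 to 91905068 with a mean of -0.28. The same rule with the sign turned gave 6 domains in the genome, of which 1 was on chromosome 12, at its distal end. Domains on this chromosome thus differed in whether 1 or both KO lines lay below the WT mean.

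The distal region, taken from 119.3 to 120.1 Mb of a chromosome of 120129022 bases, held 22 sites, 6 of them promoter sites. It covers Macc1, a regulator of MET expression known from metastatic colon cancer, and Tmem196, a membrane protein gene, and is otherwise without protein-coding genes. Summed over the 22 sites the normalised read count was 853 in WT1, 771 in WT2, 917 in KO1 and 1772 in KO2. KO2 was 2.09 times the mean of the other 3, which lay close together. The median shift was 1.25 in KO2, -0.19 in KO1, -0.37 in WT2 and -0.43 in WT1. KO2 was highest at 16 of the 22 sites (72.7%, against 28.0% of all sites), and its shift was above 1 at 12 of them. KO1 was highest at 5 sites, WT2 at 1 and WT1 at 0. The rise was seen at promoter sites (KO2 shift 1.54, highest at 5 of 6) and at nonpromoter sites (1.25, highest at 11 of 16). The higher-accessibility domain (119309448 to 120028442, 21 sites, mean log2 fold change 0.72) was accordingly uneven, with KO1 at 0.11 and KO2 at 1.33 against the WT mean.

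The region was not raised evenly in KO2. The site at a Macc1 transcript start (chr12:119390225-119390608, sequence above) had 34 in WT1, 32 in WT2, 16 in KO1 and 134 in KO2. The intronic site at chr12:119385511-119386049, with 2 AP-1 matches, had 28, 44, 34 and 155 in the same order. At these sites KO2 stood alone and KO1 was within or below the WT range. The strongest sites of the region moved less. The intronic site at chr12:119425965-119427128 had 177, 143, 125 and 272, and the promoter site at chr12:119440357-119441762 had 161, 126, 124 and 194. An intergenic site at 119816291 had 6, 4, 0 and 35, the largest KO2 shift (3.46) on the lowest counts. At an intronic Macc1 site at 119376866, with 99, 84, 122 and 96, KO2 was not raised, and the same held for the last 2 sites, at 119981867 (12, 17, 11 and 11) and 120028188 (22, 21, 26 and 23).

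Some sites of the region were higher in both KO lines. The called site (chr12:119762460-119762902, sequence above), 183 kb from the start of Tmem196, had 10 in WT1, 5 in WT2, 51 in KO1 and 45 in KO2 (log2 fold change 2.59, SE 0.55). The Tmem196 promoter site had 23, 21, 46 and 35, with a log2 fold change of 0.84 (SE 0.40). Both were sites at which the genotypes did not overlap, as were 8 of the 22 with KO above WT (36.4%, against 14.6% of all sites). Over the region 1 site was called and 4 passed an unadjusted limma p under 0.05, and the median log2 fold change was 0.56. These values were part of why the region was singled out and were read no further.

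KO2 was also raised outside the region, by less. The 8 sites just before the region (118997321 to 119265452), around Abcb5 and Itgb8, had a KO2 shift of 0.71, and KO2 was highest at 7 of them. Their sum was 543 in WT1, 495 in WT2, 604 in KO1 and 712 in KO2, which put KO2 at 1.30 times the mean of the others. The Itgb8 promoter, which drives an integrin subunit that activates TGF-beta, had 348, 333, 374 and 411 in the same order (log2 fold change 0.20, SE 0.14). KO2 was again the highest library there, by a small margin.

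**Figure D5:**
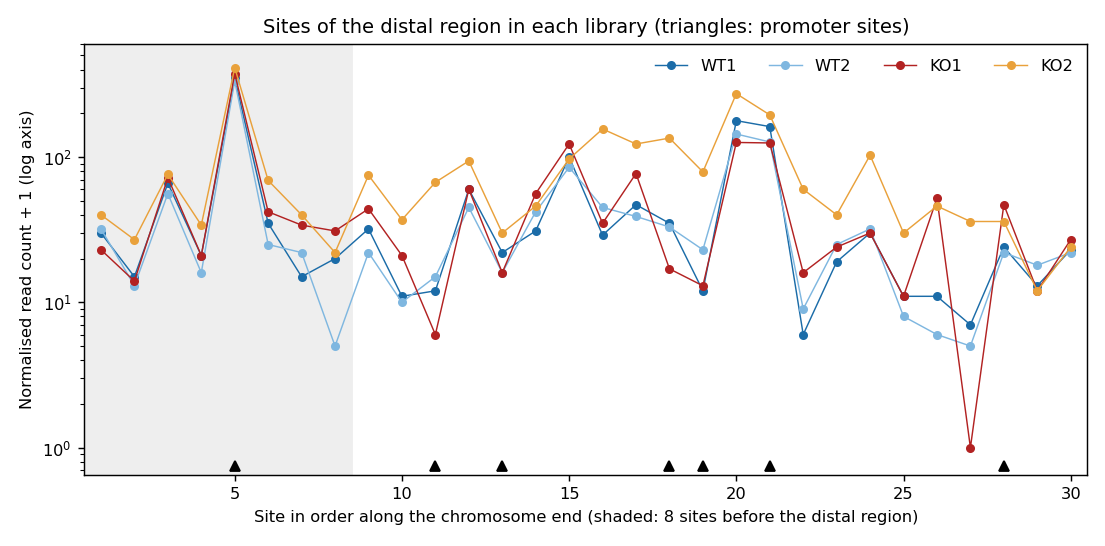
Normalised read count plus 1 (vertical log axis) in each library at the 8 sites before the distal region (shaded) and its 22 sites, in order along the chromosome (horizontal axis), with triangles under promoter sites. KO2 lies above the other libraries at 16 of the 22 sites and rejoins them at the last 2.

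Genes of known function on the chromosome were taken from 6 lists, and each was represented by its strongest promoter site. Of 100 genes annotated on chromosome 12, 63 had a site, 0 of these were called (0.373% of all sites were), and WT1 was the lowest library at 32 (50.8%). WT1 was lowest at 41.2% of all promoter sites of the chromosome and at 64.4% of its strong ones.

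Of 15 developmental transcription factor genes, 12 had a site, and 2 passed an unadjusted p under 0.05 (3.13% of all sites did), 1 in each direction. The median log2 fold change of the 12 was 0.16, against 0.10 over chromosome 12 promoter sites and 0.01 over all promoter sites. Meox2, a homeobox gene of somite and limb muscle, had 63 in WT1, 129 in WT2, 13 in KO1 and 50 in KO2 (log2 fold change -1.77, SE 0.68). Sp4, a zinc-finger factor that binds GC boxes, had 724, 848, 918 and 1280 in the same order (0.47, SE 0.16). KO libraries were below WT at Meox2 and above at Sp4 without overlap, and neither passed adjustment. At Sox11, a neural and mesenchymal HMG-box factor, the values were 178, 194, 54 and 212, and at Mycn, the neural MYC paralogue, 69, 64, 29 and 99. At both, KO1 was low and KO2 high. At Pax9, a factor of tooth and skeletal development, they were 217, 131, 351 and 83, with the KO lines reversed. Twist1, a bHLH factor of mesenchyme, had 360, 348, 396 and 338 and differed little.

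Of 13 stimulus and growth response genes 10 had a site, and 0 passed p under 0.05. Their log2 fold changes ran from -0.24 to 0.27 with a median of 0.12, and both KO values were above both WT values at 4 genes and below them at 0. Fos, an immediate early gene and AP-1 subunit, had 367 in WT1, 452 in WT2, 554 in KO1 and 433 in KO2. Hif1a, the oxygen-regulated factor, had 392, 445, 466 and 454, and Nfkbia, the inhibitor of NF-kappaB, 360, 379, 450 and 409. WT1 was the lowest library at Fos, Hif1a and Nfkbia, as at 6 of the 10, and the genotypes overlapped at Fos alone of these 3.

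Matrix and signalling genes of fibroblasts had a site at 10 of 11, all with a positive fold change (0.05 to 0.47). WT1 was lowest at 7 of them, with a list shift of -0.23. Actn1, an actin crosslinker of stress fibres, had 692, 815, 878 and 920 in WT1, WT2, KO1 and KO2 (0.26, SE 0.10). Fbln5, an elastic fibre protein, had 187, 283, 265 and 362, and Tgfb3, a TGF-beta ligand, 355, 378, 402 and 442. WT1 was lowest at these 3 genes, and the genotypes overlapped at Fbln5.

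Chromatin and replication genes had a site at 12 of 13, and WT1 was lowest at 8. An unadjusted p under 0.05 was reached by 2 of the 12, against 4.97% of chromosome 12 promoter sites and 3.13% of all sites. Asxl2, a polycomb-associated regulator, had 485, 590, 683 and 704 in WT1, WT2, KO1 and KO2 (log2 fold change 0.37, SE 0.12) and was 1 of them. Yy1, a zinc-finger factor of promoters and loops, had 355, 404, 439 and 520. Dnmt3a, a de novo DNA methyltransferase, had 86, 79, 103 and 72, so its genotypes overlapped.

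In the imprinted Dlk1-Dio3 domain 7 of 8 genes had a site, most of them weak, and the median log2 fold change was -0.32. Dlk1, a paternally expressed Notch-like ligand, had 37, 33, 23 and 20 in WT1, WT2, KO1 and KO2, and Meg3, a maternally expressed long RNA, had 31, 48, 16 and 35. Begain, at the edge of the domain, had 46, 60, 43 and 41. None of the 7 passed p under 0.05, and the log2 fold changes had SE values of 0.18 to 0.90. The strongest, Wars, a tRNA synthetase gene outside the imprinted genes proper, had 201, 247, 293 and 301.

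The list of genes taken as restricted to other tissues had a site at 12 of 40, and whether each gene is so restricted was not tested. Of the liver-type Serpina genes, Pomc and the immunoglobulin heavy chain constant genes most had none. Tshr, the thyrotropin receptor, had 313, 357, 413 and 444 in WT1, WT2, KO1 and KO2 (0.36, SE 0.14), at a site shared with the neighbouring Cep128. Immp2l, a mitochondrial protease subunit, had 179, 209, 284 and 253 (0.47, SE 0.19). Nrxn3, a synaptic adhesion gene, had 151, 157, 25 and 203, with KO1 alone low. Serpina3a had 42, 46, 9 and 36, again with KO1 lowest. KO1 was thus the lowest library at Nrxn3 and Serpina3a, as at Meox2, Sox11 and Mycn.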

How the data were processed

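ATAC-Seq was done on 4 imMEF lines, 2 WT and 2 KO. Per the labels and the study's methods, paired-end reads were aligned to mm10 with BWA 0.7.12, peaks were called with MACS2 2.1.0 and occupancy was compared with DESeq2. The deposited value is a score made by the authors, the reads over a merged site scaled for library size and given as a whole number. Read filtering, the Tn5 offset and the treatment of reads with several matches were not given in the sources used here, and counting error is the part of the error that depth sets. Columns of the authors' own comparison (raw and shrunken log2 fold changes, raw and adjusted p-values) stand in the same table and were not used.

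Values were compared with limma 3.58.1 (R 4.3.3, intensity trend, all sites, no filter) on log2(value + 1). Fold changes on this scale understate the change of low sites. The scripts were tested on simulated data. Shifts, bins and domains were computed with Python 3.11.15, numpy 2.4.6 and pandas 2.3.3, and sequences were read with pysam 0.24.0. Sites were annotated with GENCODE basic models on GRCm38, and every chromosome 12 site lay within the chromosome. Replicate numbers follow accession order and only name the libraries. The members, lists and tests were chosen with earlier results of these data known.

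Sites were named by rule: the 5 lowest and 5 highest log2 fold changes among called sites with a value no lower than the median, each library's extreme bins, the sites of the distal region and the listed genes' strongest promoter sites. Some items that this rule names are not reported here. Alternatives were a pseudocount of 8, equal totals, quantile normalization, stronger sites alone, no trend, other bins, promoter limits and domain windows, and leaving out each library.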

Additional observations from a re-analysis of the deposited data

How the results depend on the processing

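With 2 libraries per genotype, and 1 library per line, the calls rest on unadjusted p-values, and where a library is left out the lone library of its genotype is assumed to vary like the other group. The median WT1 shift of chromosome 12 stayed negative under every alternative run (-0.21 to -0.12), with -0.12 under equal totals, and was -0.19 to -0.18 with another library left out. The chromosome 12 median log2 fold change ran from 0.03 (equal totals) to 0.15 (stronger sites alone), and from -0.02 to 0.18 with a library left out. The WT2, KO1 and KO2 shifts then ran from 0.02 to 0.12, 0.00 to 0.11 and 0.00 to 0.10. In the distal region the KO2 shift was 0.97 to 1.51 with a library left out, and 0.89 among stronger sites alone. The other distal shifts ran from -0.72 to -0.07 in WT1, -0.71 to -0.14 in WT2 and -0.37 to 0.17 in KO1, and quantile normalization put KO1 at 0.06. The 14 called sites became 3 among stronger sites alone, where fewer sites were tested, and 0 at an adjusted p under 0.05. They became 2 to 47 with a library left out: 2 without WT2, 5 without WT1 and 47 without KO2. The number of called sites over the whole genome also fell without WT1 and without WT2 and rose without KO2, so these changes were not particular to chromosome 12. Without the trend there were 21, of which 9 were shared with the 14. The share of all sites called then also rose, from 0.373% to 0.652%. The 0 called bins stayed at 0 under every alternative that kept all 4 libraries. The number rose without KO1 and without KO2 on chromosome 12, and it also rose over all bins. The 5 lower domains became 3 at a pseudocount of 8, 0 among stronger sites alone, 12 with windows of 15 sites, 3 with windows of 51, 14 with gaps of up to 0.25 Mb, and 4 to 15 with a library left out (9 without WT1 and 15 without KO2). Of the 12 values of the 3 named sites with a library left out, 10 lost the call and none changed direction, and of 9 values under other settings 1 did (Cdkl1 at a pseudocount of 8, -0.99). Apart from the effects of fewer sites tested, the cause was not tested. No paired analysis was possible because numbers were given by accession. The names of the WT1 line (643CT) and the KO2 line (643BT) share a number, whose meaning the labels do not give, and the other 2 lines share none, which leaves 1 pair.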
